A study of Homo sapiens with 3 samples.

Results

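Homologous recombination repairs a broken chromosome by copying the intact sister chromatid, and it works in the S and G2 phases of the cell cycle, when that sister exists. BRCA1 and BARD1 form a ubiquitin ligase that promotes resection of the broken ends, and PALB2 joins BRCA1 to BRCA2, which acts on the exposed strand. FANCD2 marks stalled forks and crosslinks for repair, the kinases ATM and ATR sense breaks and exposed single strands, and their effector kinases CHEK2 and CHEK1 hold the cell cycle while repair proceeds.

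The mRNA of these 9 genes was followed after loss of RBCK1 (HOIL-1), a subunit of the linear ubiquitin chain assembly complex. They were taken by symbol from a table of 44591 genes, and all 9 passed a filter of 1 RPKM on average over the libraries, as did 12403 genes in all (RPKM being reads scaled to gene length and to library size). The cells were Caki-1, an established clear cell renal cell carcinoma line without an engineered change in the labels. Each of 3 conditions was a transfection with 10 nmol/L siRNA, with RNA taken at 48 h: a non-targeting siRNA (si-Control) or one of a pair directed at RBCK1, called si-RBCK1 #1 and si-RBCK1 #2. Each condition was 1 library of RNA freed of ribosomal RNA, so nothing here could be checked against replicates and no p-value is given. The siRNAs are different reagents set against the same control library, so values alike with both are not independent of that library.

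The siRNA sequences are printed because each condition rests on 1 oligonucleotide. Both matched the coding sequence of RBCK1 on the plus strand in GRCh38 (longest protein-coding transcript of GENCODE 29), #1 in exon 6 at chr20:419577-419595 and #2 in exon 9 at chr20:427327-427345. The sense strands follow, 5′ to 3′, with the bases that pair with positions 2 to 8 of the guide strand, its seed, in capitals.
si-RBCK1 #1: ggtgcaccttcATCAACAa
si-RBCK1 #2: ggattaccagcGATTTCTa
Neither full sequence occurred in the longest coding transcript of any of the 9 genes. The 7-base seed match of #1 occurred in 7 of the 9 transcripts and that of #2 in 4. These transcripts were 1971 to 13147 bases long. The share of all transcripts with a match was not counted, so no excess or lack can be read from these counts. BRCA1 held 0 matches of #1 and 3 of #2, CHEK1 held 1 and 0, and CHEK2 held 0 of either. A seed match is a run of letters and not a measured site.

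Between 36344428 and 40442939 reads lay behind the RPKM values of a library. RBCK1 (hg19 chr20:388694-412783, plus strand) was at 33.3 RPKM in si-Control, 9.97 with #1 and 12.3 with #2, so that 29.9% and 36.8% of the control level remained. The renal lineage factor PAX8 was at 124, 82.5 and 107 RPKM in the same order and PAX2 was near 0, at 0.0064, 0.0642 and 0 RPKM. Of 6 renal and epithelial markers 4 passed the filter. With both siRNAs PAX8 was lower than si-Control, while the other 3 were higher. Log2 ratios on log2(RPKM + 1) with #1 and #2 were −0.59 and −0.22 for PAX8 and 1.38 and 1.84 for KRT8. They were 0.57 and 0.84 for KRT18, and 1.28 and 1.05 for CDH6. Of 8 markers of blood, endothelial, fibroblast and muscle cells, only COL1A1 passed 1 RPKM on average; 2 or 3 were at 0 in each library, and their summed level was between 3.61 and 4.83 RPKM. The median log2 ratio of all genes, on log2(RPKM + 1), was 0.02 with #1 and 0.03 with #2.

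The 9 genes did not all lie on the same side of control. BRCA2, BARD1, FANCD2, ATR and CHEK1 were higher than si-Control with both siRNAs, BRCA1 and CHEK2 were lower with both, and PALB2 and ATM lay on opposite sides of the control. Levels ran from 1.66 to 10.6 RPKM, and the smallest whole read numbers that give these values ran from 301 to 3094. The median log2 ratio of the 9 on log2(RPKM + 1) was 0.17 with #1 and 0.43 with #2. It depended on the pseudocount and on the low genes, being 0.096 and 0.19 with a pseudocount of 5 RPKM, and 0.17 and 0.10 without BRCA2, BARD1, FANCD2 and CHEK2, which average under 5 RPKM. The mean of the 9 was 0.16 and 0.19.

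Few of these differences were large. On log2(RPKM + 1), which understates the ratios of low genes, CHEK1 with #1 was the only value at least 1.5-fold higher than si-Control, 1 of 9 beside 12.1% of all genes, and 0 of 9 were at least 1.5-fold higher with #2, beside 11.3%. None of the 9 was at least 1.5-fold lower, beside 11.6% of all genes with #1 and 9.32% with #2. At 2-fold, the limit in the study's methods, the count was 0 of 9 in each direction with each siRNA, where 2.91% of all genes were higher and 3.27% lower with #1, and 2.5% higher and 2.27% lower with #2. Without the pseudocount, a setting added after seeing the data for these counts, CHEK1 alone was at least 1.5-fold higher with #1, beside 15.6% of all genes, and BRCA2, BARD1 and CHEK1 were with #2, 3 of 9 beside 15.4%. None of the 9 was at least 1.5-fold lower in that setting either, beside 15.8% of all genes with #1 and 12.8% with #2.

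The exact 95% intervals below come from the reads and cover counting error only, not the variation between cultures. By that measure 8 of 9 log2 ratios excluded 0 with #1 and 8 of 9 with #2, beside 77.8% and 75.2% of all genes with whole reads, so at this depth most genes differ by more than counting error.

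BRCA1 (chr17:41196312-41277500, minus strand, hg19 as for the genes that follow) was at 8.82 RPKM in si-Control, 6.90 with #1 and 7.55 with #2. It was the most abundant of the 9 in si-Control and lay below that level in both knockdown libraries. On reads its log2 ratio was −0.35 (95% interval −0.48 to −0.23) with #1 and −0.22 (−0.35 to −0.10) with #2, or 78.2% and 85.6% of control. Its partner BARD1 (chr2:215590370-215674435, minus strand), which stabilises BRCA1 protein, lay on the other side of control. BARD1 was at 1.66 RPKM in si-Control, 2.32 with #1 and 2.58 with #2, the lowest level of the 9 in si-Control. Its log2 ratio on reads was 0.49 (0.29 to 0.69) with #1 and 0.64 (0.44 to 0.84) with #2.

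PALB2 (chr16:23614483-23652678, minus strand) was at 7.66 RPKM in si-Control, 8.76 with #1 and 7.47 with #2. The bridging protein's mRNA was thus above control with #1 and close to it with #2, with log2 ratios on reads of 0.19 (0.08 to 0.31) and −0.04 (−0.16 to 0.08). BRCA2 (chr13:32889617-32973809, plus strand) was at 1.79 RPKM in si-Control, 2.15 with #1 and 2.75 with #2. It was highest with #2, at 153% of control against 120% with #1, and its log2 ratios on reads were 0.62 (0.48 to 0.75) and 0.26 (0.13 to 0.40).

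FANCD2 (chr3:10068071-10143621, plus strand) was at 2.62 RPKM in si-Control, 3.14 with #1 and 3.90 with #2, the same order as BRCA2. Its log2 ratio on reads was 0.26 (0.11 to 0.42) with #1 and 0.58 (0.42 to 0.73) with #2. A pseudogene copy, FANCD2P1, was at 0.679, 0.532 and 1.58 RPKM in the same order. How reads shared with that copy were assigned is not given in the sources used here, and its part in the FANCD2 value was not tested.

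The apical kinases differed from each other. ATR (chr3:142168077-142297668, minus strand), which responds to exposed single strands at forks, was at 6.80 RPKM in si-Control, 9.27 with #1 and 9.53 with #2. Its log2 ratio on reads was 0.45 (0.37 to 0.53) with #1 and 0.49 (0.40 to 0.57) with #2, a like excess with both siRNAs. ATM (chr11:108093559-108239826, plus strand), which responds to broken ends, was at 5.13, 4.55 and 5.56 RPKM in si-Control, #1 and #2. It was lower than control with #1, at a log2 ratio on reads of −0.17 (−0.26 to −0.09), and higher with #2, at 0.12 (0.04 to 0.20).

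The effector kinases lay on opposite sides of control. CHEK1 (chr11:125495031-125546151, plus strand), the main effector of ATR, was at 5.82 RPKM in si-Control, 10.6 with #1 and 8.80 with #2. It was the highest of the 9 genes with #1, and ranked 4 of 9 in si-Control. On reads its log2 ratio was 0.87 (0.76 to 0.97) with #1 and 0.60 (0.48 to 0.71) with #2, or 182% and 151% of control. CHEK2 (chr22:29083731-29137822, minus strand), the main effector of ATM, was at 5.61 RPKM in si-Control, 4.92 with #1 and 3.94 with #2. Its log2 ratio on reads was −0.19 (−0.39 to 0.01) with #1 and −0.51 (−0.73 to −0.29) with #2. The interval of CHEK2 with #1 thus held 0, but it is at its widest, as the reads are the smallest whole numbers that give the RPKM. With #2 CHEK2 stood at 70.3% of control.

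Set directly against each other, which leaves the control library out, the siRNA libraries differed by more than counting error for 7 of the 9 genes, beside 62.5% of all genes. BRCA2 (log2 ratio of #2 to #1 of 0.35, interval 0.23 to 0.48), FANCD2 (0.31, 0.17 to 0.45) and ATM (0.29, 0.21 to 0.37) were higher with #2. CHEK2 (−0.32, −0.54 to −0.10), CHEK1 (−0.27, −0.36 to −0.17) and PALB2 (−0.23, −0.35 to −0.12) were lower with #2. BRCA1 differed by 0.13, with an interval that barely left out 0. For ATR (0.04, −0.03 to 0.11) and BARD1 (0.15, −0.03 to 0.33) the interval, at its widest on the smallest whole reads, held 0.

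By level, BRCA1, PALB2 and ATR led in si-Control, CHEK1, ATR and PALB2 led with #1, and ATR, CHEK1 and BRCA1 led with #2. BRCA2, BARD1 and FANCD2 held the lowest 3 places in every library. The summed level of the 9 genes was 45.9 RPKM in si-Control, 52.6 with #1 and 52.1 with #2.

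Ratios between partner genes within a library do not depend on how libraries are scaled. The BRCA1 to BARD1 ratio was 5.32 in si-Control, 2.97 with #1 and 2.93 with #2, a log2 change of −0.84 (−1.08 to −0.60) and −0.86 (−1.10 to −0.63). The CHEK1 to CHEK2 ratio was 1.04 in si-Control, 2.16 with #1 and 2.23 with #2, a log2 change of 1.05 (0.83 to 1.28) and 1.11 (0.86 to 1.35). In both pairs the knockdown libraries lay close together and away from si-Control. The ATM to ATR ratio was 0.754, 0.490 and 0.583 in si-Control, #1 and #2, lower in both knockdown libraries. The BRCA2 to PALB2 ratio was 0.233, 0.245 and 0.368, and stood apart from control only with #2 (log2 change of 0.66, 0.47 to 0.84).

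**Figure D1:**
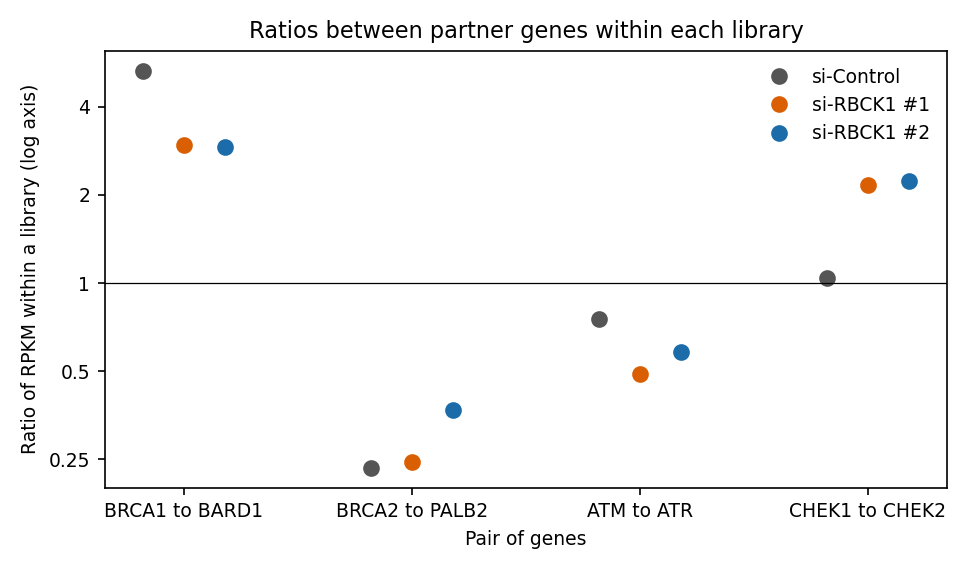
Points give the ratio of RPKM of partner genes within each library (vertical axis, log scale) for 4 pairs (horizontal axis), coloured by library. BRCA1 to BARD1 is lower, at 2.97 and 2.93 against 5.32, and CHEK1 to CHEK2 higher, at 2.16 and 2.23 against 1.04, in both knockdown libraries.

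The 84 partner genes that passed the filter fell in 6 lists and had a median log2 ratio of 0.22 with either siRNA. Of these, 14 were at least 1.5-fold higher with both siRNAs, beside 7.47% of all genes. At least 1.5-fold lower with both were 2, beside 6.24%. At any size, 51.5% of all genes were higher than si-Control with #1 and 53.5% with #2. The share of all genes on the same side with both was not counted, and both ratios share the control library. Counts of genes higher or lower with both at any size, given for the lists below, thus have no share of all genes beside them.

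Among 25 other recombination genes the median was 0.45 with #1 and 0.28 with #2, and 18 were higher and 4 lower with both. EXO1, a resection nuclease, was at 8.98, 21.9 and 20.8 RPKM in si-Control, #1 and #2, and the strand exchange motor RAD54L at 3.73, 10.8 and 7.52 RPKM. The resection nuclease DNA2, the helicase BLM and EME1, a subunit of a structure-specific nuclease, also exceeded 1.5-fold with both, at log2 ratios between 0.69 and 1.00. RAD50, a subunit of the MRN end-binding complex that activates ATM, was lower, at 36.3 RPKM in si-Control, 20.4 with #1 and 23.3 with #2. The other subunits of that complex were higher with both siRNAs. Log2 ratios with #1 and #2 were 0.45 and 0.71 for MRE11, and 0.24 and 0.28 for NBN.

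Of 17 Fanconi pathway genes besides FANCD2, the medians were 0.18 and 0.24, and 10 were higher and 5 lower with both siRNAs. The core complex members FANCA (2.96, 7.46 and 7.03 RPKM), FANCB and FANCG and the FANCD2 ubiquitin-conjugating enzyme UBE2T (23.5, 50.5 and 38.9 RPKM) were at least 1.5-fold higher with both. WDR48, a cofactor of the enzyme that removes ubiquitin from FANCD2, had log2 ratios of −0.40 and −0.47.

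Of 15 checkpoint genes, 10 were higher and 4 lower with both, with medians of 0.17 and 0.47. CLSPN, the adaptor through which ATR activates CHEK1, was at 1.99, 5.02 and 5.50 RPKM, and CDC25A, a phosphatase that CHEK1 marks for degradation, at 3.94, 13.3 and 6.74 RPKM. The clamp loader gene RAD17 (log2 ratios −0.47 and −0.23) and the ATR activator ETAA1 (−0.31 and −0.37) lay below control. Another ATR activator, TOPBP1 (0.14 and 0.48), and the ATR partner ATRIP (0.66 and 0.55) lay above it.

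Among 11 genes of chromatin at breaks, medians were 0.04 and 0.17. H2AFX, the histone variant that ATM phosphorylates, was at 22.5, 41.8 and 56.5 RPKM, and the ubiquitin ligase RNF168 at 5.35, 10.8 and 9.05 RPKM. BRE, a scaffold of the BRCA1-A complex, was lower, at 45.7 RPKM in si-Control and 27.2 with either siRNA. Other subunits of that complex were not lower to that extent. Their log2 ratios were 0.04 and 0.02 for UIMC1 and −0.08 and 0.004 for FAM175A. For BABAM1 they were 0.11 and 0.37, and for BRCC3 −0.04 and 0.28. Of 7 genes of the other related kinases and the complex that matures ATM and ATR, 5 were higher and 2 lower with both. TELO2, a core of that maturation complex, had log2 ratios of 0.93 and 1.01, and the related kinase SMG1 was at 22.0, 14.4 and 18.3 RPKM. The partners of TELO2 differed, with log2 ratios of 0.62 and 0.34 for TTI1 and −0.10 and −0.27 for TTI2. The 9 genes of end joining, the pathway that works without a sister chromatid, had medians of 0.06 and −0.06, and none was 1.5-fold away with both; LIG4 and XRCC4, which seal the ends together, had log2 ratios between −0.62 and −0.48.

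Genes of the G1/S transition and S phase differed far more from control than the 9. All 17 were higher with both siRNAs, 14 of them at least 1.5-fold (7.47% of all genes were), with medians of 1.29 and 1.31, and their summed level was 302 RPKM in si-Control, 738 with #1 and 721 with #2. RRM2, a subunit of ribonucleotide reductase, had log2 ratios of 2.27 and 1.92, MCM4 of the replicative helicase 1.67 and 1.80, and the sliding clamp PCNA 1.74 and 1.51. The 17 genes of G2 and mitosis had medians of 0.02 and 0.09, with MKI67 above control (0.87 and 1.03) and CCNB2 below (−0.86 and −0.86). More cells in S phase and more RNA of these genes per cell cannot be told apart in bulk RNA, and the part of S phase in the values of the 9 genes was not tested.

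**Figure D2:**
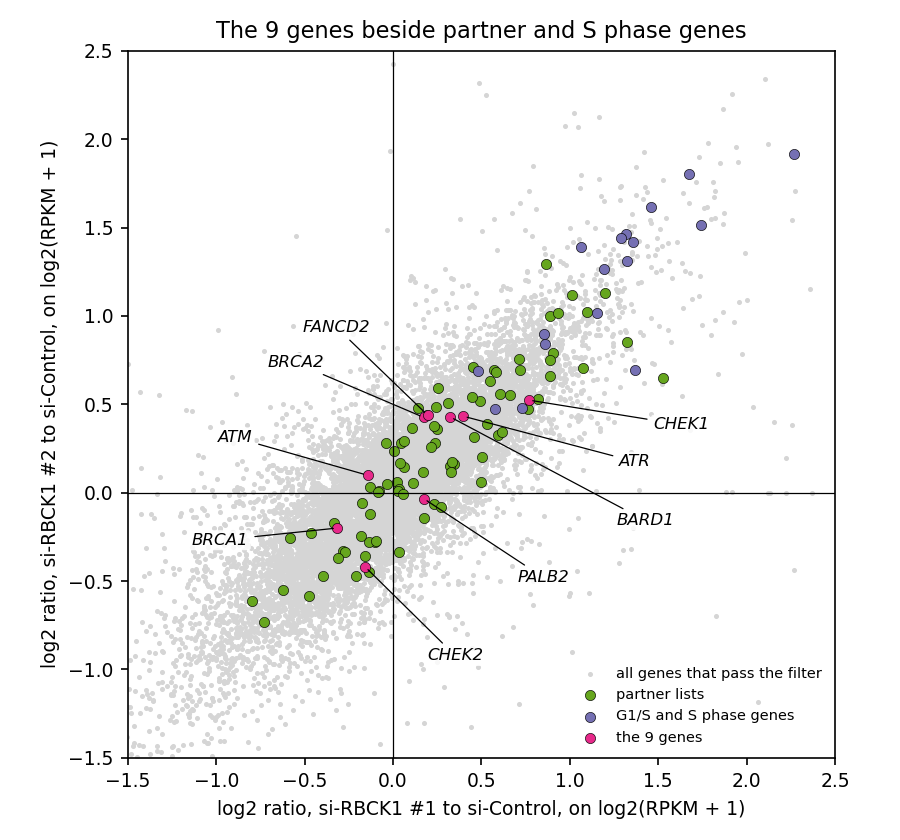
Each point is a gene, with its log2 ratio to si-Control on log2(RPKM + 1) with #1 (horizontal axis) and #2 (vertical axis); genes beyond the axes are not shown, and both axes share the control library. The 9 genes (pink) lie within 0.77 of 0 on either axis, while S phase genes (purple) reach 2.27.

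Several of the 9 genes start next to a gene on the other strand. BRCA1 starts 74 bases from NBR2, a long noncoding RNA, which was at 4.77, 2.70 and 3.24 RPKM in si-Control, #1 and #2. CHEK2 starts 198 bases from HSCB, an iron-sulfur cluster chaperone gene, which was at 10.1 RPKM in si-Control and 6.63 with either siRNA. In both cases neighbour and gene lay below control in both knockdown libraries, with intervals for NBR2 of −1.06 to −0.58 and −0.79 to −0.33 and for HSCB of −0.82 to −0.40 and −0.83 to −0.39. PALB2 starts 9 bases from DCTN5, a dynactin subunit gene, at 9.55, 13.1 and 10.5 RPKM, and like PALB2 it was higher with #1 than with #2. ATM starts 194 bases from NPAT, a histone gene activator, at 3.18, 3.31 and 3.85 RPKM, whose interval with #1 held 0 (−0.09 to 0.20). FANCD2 starts 251 bases from the noncoding CIDECP, at 6.68, 5.51 and 5.79 RPKM, on the other side of control from FANCD2. The intervals of CIDECP held 0 with both siRNAs (−0.58 to 0.02 and −0.51 to 0.10). Gene and neighbour lay on the same side in 3 of 5 pairs with each siRNA, beside 57.1% and 58.4% of 1106 such pairs over all genes. Sides were counted whether or not an interval held 0. The neighbour of BARD1 was under the filter, and BRCA2, ATR and CHEK1 had none within 1000 bases.

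The promoters of BRCA1 and CHEK2, the genes below control with both siRNAs, and of CHEK1 are printed. CHEK1 had the highest ratio with #1, while on reads with #2 it came after BARD1 and BRCA2. Each is the 200 bases before a RefSeq start on GRCh38.p14, 5′ to 3′ on the gene's strand: chr17:43125365-43125564 (minus) for BRCA1, chr22:28741821-28742020 (minus) for CHEK2 and chr11:125626156-125626355 (plus) for CHEK1, where BRCA1 had 2 and CHEK1 had 3 starts. Capitals mark matches to CCAAT (or ATTGG on the other strand) and to the E2F core TTCCCGC or TTGGCGC (or their reverse complements).
BRCA1: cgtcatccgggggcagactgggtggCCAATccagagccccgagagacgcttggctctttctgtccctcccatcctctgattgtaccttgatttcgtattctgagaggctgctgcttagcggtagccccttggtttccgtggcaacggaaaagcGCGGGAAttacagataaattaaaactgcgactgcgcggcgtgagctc
CHEK2: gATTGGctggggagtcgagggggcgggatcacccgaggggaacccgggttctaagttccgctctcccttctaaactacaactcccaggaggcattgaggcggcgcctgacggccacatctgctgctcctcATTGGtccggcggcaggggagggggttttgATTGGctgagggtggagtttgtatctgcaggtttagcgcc
CHEK1: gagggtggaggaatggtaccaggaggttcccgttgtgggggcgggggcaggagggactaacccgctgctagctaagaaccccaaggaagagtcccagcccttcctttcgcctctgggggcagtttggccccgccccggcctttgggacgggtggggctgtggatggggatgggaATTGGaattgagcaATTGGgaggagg
For each of the 9 genes only 1 start was scanned, the one that best matched the span of the gene, and ATM had 2. The other starts of BRCA1, ATM and CHEK1 were not scanned, so a motif missing here may stand there. CCAAT stood in 5 of the 9 promoters (BRCA1, PALB2, ATM, CHEK1 and CHEK2) and in 28% of 35116 promoters. CHEK2 held 3 matches, CHEK1 held 2 and BRCA1 held 1. The part of this motif in the ratios was not tested. The E2F core stood in 1 of 9, BRCA1, at 47 bases before its start, and in 6.52% of all promoters. The ETS core CCGGAA stood in 5 of 9 (BRCA2, PALB2, FANCD2, ATM and ATR) and in 12.9% of all, and the cell cycle element TTTGAA in 1 of 9, ATM, and in 10.3% of all. A match describes letters and is not a measured binding site.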

How the data were processed

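Caki-1 RNA was sequenced as 1 paired-end library a condition (3 libraries). The authors deposited RPKM for 44591 genes. The submitters' processing notes name FastQC, Trimmomatic, TopHat2 and HTSeq and the build hg19; their parameters and the strand setting of counting are not given in the sources used here. The table also holds the authors' own comparisons (group means, log2 fold changes, p and q values), which were not used.

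Ratios were computed as log2 of (RPKM + 1) of each si-RBCK1 library over si-Control, over the 12403 genes that averaged 1 RPKM or more. The pseudocount understates the ratios of low genes. Whole reads were recovered from the steps of RPKM, within a tolerance of 0.0001 of a read, for 99.8% of these genes. They are the smallest whole numbers that give the values, so the exact Clopper-Pearson 95% intervals on read ratios are at their widest. The step was tested on simulated data. A single library a condition allows no test, so genes were counted beyond 1.5-fold and 2-fold beside the share of all genes.

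The 9 genes and all gene lists were chosen with earlier results of these data known. Named genes were the 9, RBCK1, their head-to-head neighbours, and from each list the 3 with the highest and the 2 with the lowest ratio among those on the same side with both siRNAs, plus any at least 1.5-fold away with both, of which only some are printed. One recombination gene is counted in its list and not reported here. The 5 genes nearest to the median of the 9 were also named. Alternatives were other pseudocounts (0.1 and 5 RPKM, none on reads), filters and scalings. Analyses used Python 3.11.15, numpy 2.4.6, pandas 2.3.3 and scipy 1.17.1. siRNA sequences came from the study's supplementary table, promoters from RefSeq (GRCh38.p14), and transcripts from GENCODE 29.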

Additional observations from a re-analysis of the deposited data

Results flagged for a closer look

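PALB2 and ATM lay on opposite sides of si-Control with the 2 siRNAs. On log2(RPKM + 1), PALB2 was at 0.17 with #1 and −0.033 with #2, and ATM at −0.14 with #1 and 0.10 with #2. On reads, the interval of PALB2 with #2 held 0 (−0.16 to 0.08), so its side there is not settled. Those of ATM left out 0 with #1 (−0.26 to −0.09) and with #2 (0.04 to 0.20). With 1 library each the difference between siRNAs was not tested across replicates. On reads, the direct log2 ratio of #2 to #1 was −0.23 (95% counting interval −0.35 to −0.12) for PALB2 and 0.29 (0.21 to 0.37) for ATM. Only counting error enters these intervals.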

How the results depend on the processing

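No paired analysis was possible because only 1 library was made per condition, and for the same reason no library could be left out. Ratios of single genes were compared with the distance from the read ratio to an end of its counting interval. Of 90 ratios of the 9 genes under other pseudocounts and scalings, 80 moved by less than that distance, 10 moved by more and 0 changed sign. With a pseudocount of 0.1 RPKM, and also with none (added after seeing the data), 3 of the 9 genes were at least 1.5-fold higher with #2 (BRCA2, BARD1 and CHEK1), and with 5 RPKM 0 were with #1. The median of the 9 genes with #2 was 0.19 with a pseudocount of 5 RPKM, 0.10 among those with a mean of at least 5 RPKM, which drops BRCA2, BARD1, FANCD2 and CHEK2, and 0.19 as a mean over the 9 in place of the median. With libraries scaled to equal totals, the medians with #1 of the list of chromatin at breaks and of the list of G2 and mitosis changed sign, to −0.0081 and −0.028. Of the 40 neighbour ratios recomputed, 38 moved by less than the distance to an end of their counting intervals. List medians have no counting interval of their own. Of the 64 other list medians recomputed, 57 were classed as unmoved, 5 as moved and 2 as reversed. Scaling moved the median of all genes by 0.05 or less. The intervals of CHEK2 and BARD1 rest on the fewest recovered reads, 301 to 517 a library. These are the smallest whole numbers that give the RPKM, and the true reads may be more.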

Other observations

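The 5 protein-coding genes nearest to the median of the 9 genes in the plane of the 2 log2 ratios were ZNF92, RPP25, HSD11B1L, F2R and HIGD2A, over 3 libraries and at distances of 0.0063 to 0.0169. In all, 211 of 10766 candidate genes lay within 0.1 of that point, so the position is a common one.

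Some genes overlap the 9 on the genome and did not pass the filter. The strand setting of counting is not given in the sources used here. LOC731755, opposite ATR, was at 1.22 RPKM in si-Control, 0.455 with #1 and 0.453 with #2. C11orf65, opposite ATM, was at 0.307, 0.0624 and 0.0347 RPKM, and ACRV1, opposite CHEK1, at 0.346, 0.0210 and 0.234 RPKM.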
